A study of Mus musculus with 12 samples.

Results

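Ttr encodes transthyretin, and it was the gene that the vectors of this study were built to raise or to lower. It is 1 of 55401 gene identifiers in the deposited tables and was found by matching its Ensembl identifier, ENSMUSG00000061808, to its symbol. The libraries held polyadenylated RNA of prefrontal cortex. The mice, C57BL/6J males aged 14 weeks, had received adeno-associated virus (AAV) in the dorsomedial prefrontal cortex of both hemispheres 4 weeks before. All of them ate chow with 50 mg of vitamin B12 per kg. In the 4 control libraries the mice carried pAAV.1-CAG-GFP, which makes green fluorescent protein (GFP) from the broadly active CAG promoter. In the 4 overexpression libraries they carried pAAV-CAG-GFP-P2A-Ttr-WPRE.bgH, in which GFP and Ttr are read from the same promoter and joined by a self-cleaving peptide. In the 4 knockdown libraries they carried the vector with the cassettes U6-Ttr-shRNA-2 and CAG-GFP followed by WPRE3, which makes a short hairpin RNA against Ttr from the U6 promoter and GFP from CAG. All 3 groups thus had surgery, AAV and GFP, and no group without virus was part of the comparison. The control vector was bought and both Ttr vectors were custom-made by another source, so vector source cannot be told apart from the contrast with control. Neither CAG nor U6 limits a vector to 1 cell type, and a bulk library holds infected and uninfected cells together.

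Transthyretin is a secreted protein made of 4 like subunits. It carries thyroxine, the main circulating form of thyroid hormone, and, through a complex with retinol-binding protein, retinol (vitamin A). Most of it in blood comes from liver, and most of it in cerebrospinal fluid comes from the epithelium of the choroid plexus, the tissue of the brain ventricles that makes this fluid. Neurons and glia of the cortex are known to hold little Ttr RNA, and choroid plexus carried along in a dissection can therefore set the level of Ttr in a cortex sample.

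Total counts ran from 19879629 to 37166146 per library. Nothing in the labels ties the 4 libraries of a group to 4 separate mice. The p-values therefore rest on the scatter among libraries, and some of it could be technical. The 8 markers of cortical excitatory neurons summed to 1975 to 2444 CPM (counts scaled to a common library size) in the 12 libraries. The 10 markers of striatal projection neurons summed to 245 to 1462 CPM, and were present in every library of each group. The Y-linked gene Ddx3y was present in all 12 libraries at 60.5 to 80.8 CPM, as the label of male mice asks. Xist, which is made from the inactive X chromosome of females and was looked at after its values were seen, had 15.6 CPM in knockdown replicate 1 and 15.6 CPM in knockdown replicate 3, against 0.435 to 2.76 CPM in the other 10 libraries.

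The gene lies on the plus strand of chromosome 18, from 20665280 to 20674321 in build GRCm38. The annotation gives it 1 transcript of 4 exons and 1186 bases, of which 441 encode protein before the stop codon, and the last exon (20673631 to 20674321) holds the end of the coding sequence and the 3' untranslated region. No annotated gene overlaps it on either strand (0 genes). The antisense gene Gm16090 on the minus strand begins 20 bases before the start of Ttr and runs away from it. The deposited counts do not separate RNA of the mouse gene from RNA of the overexpression vector, so Ttr in overexpression libraries is the sum of both.

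Ttr was among the abundant transcripts in all 4 libraries with the overexpression virus. Ttr had 20940, 8527, 7263 and 2121 counts in overexpression replicates 1 to 4, which is 639, 261, 260 and 94.2 CPM. The highest of these libraries was 6.78 times the lowest. The exact Poisson intervals (95%, counting error only) of replicates 2 and 3 overlapped, at 255 to 266 and 254 to 266 CPM, while those of replicate 1 (630 to 648 CPM) and replicate 4 (90.2 to 98.3 CPM) stood apart from both. In TPM, the authors' unit that is also divided by gene length, Ttr stood at 1425, 553, 562 and 208. Ranked by TPM among all genes detected in the same library, Ttr was number 32 of 27161 in replicate 1, 178 of 26420 in replicate 2, 164 of 26379 in replicate 3 and 754 of 25643 in replicate 4. For scale, in the same libraries Apoe, the main lipid carrier made by astrocytes, had 2311 ± 365 TPM (SD, n = 4) and the thyroid hormone receptor gene Thra 822 ± 87.9 TPM, while Ttr had 687 ± 519 TPM. The mean of Ttr was thus below that of both genes, and its SD was above that of both. TPM uses 1 length per gene, and the length of Ttr carried by the vector was not given in the sources used. If the vector holds less than the annotated 1186 bases, of which 441 are coding, these TPM and ranks understate Ttr.

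**Figure D1:**
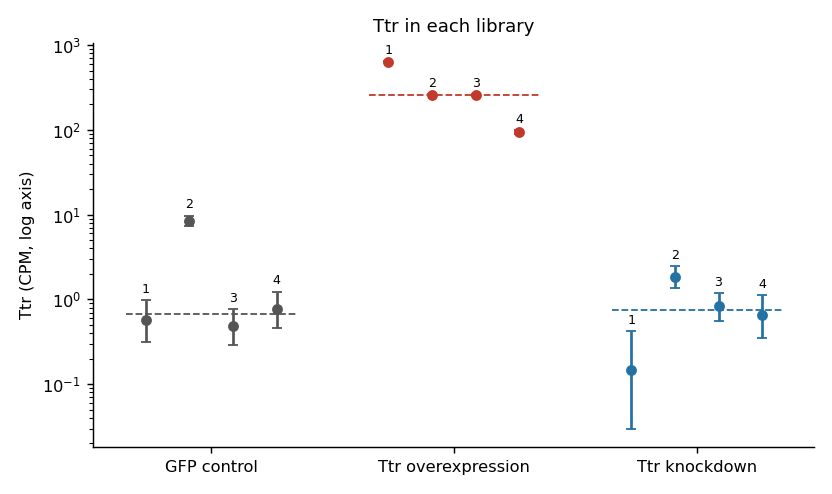
Ttr in CPM (log axis) in each of the 12 libraries, by group, with replicate numbers. Bars are exact Poisson 95% intervals for counting error alone and dashed lines are group medians (0.680, 260 and 0.745 CPM). All 4 overexpression libraries lie above every other library, and control replicate 2 lies alone between the groups at 8.50 CPM.

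Without the overexpression virus Ttr was a low-count gene in 7 of 8 libraries. The controls had 14, 200, 18 and 18 counts in replicates 1 to 4, which is 0.580, 8.50, 0.491 and 0.781 CPM. The knockdown libraries had 3, 47, 29 and 13 counts, which is 0.146, 1.86, 0.827 and 0.663 CPM. Control replicate 2 was 10.9 times the next control and its counting interval (7.36 to 9.76 CPM) met that of no other library. The other 3 controls had counting intervals that overlapped one another, from 0.291 to 1.23 CPM in all. Among the knockdown libraries, replicate 2 (1.36 to 2.47 CPM) lay above the intervals of the other 3, and replicate 1 (0.0300 to 0.425 CPM) lay below that of replicate 3 (0.554 to 1.19 CPM). In TPM the controls had 1.22, 17.5, 1.05 and 1.67 and the knockdown libraries 0.306, 4.01, 1.81 and 1.33. By rank, Ttr was number 8155 in control replicate 2 and 15641 to 16916 in the other controls, against 13391 to 20141 in the knockdown libraries, among 24861 to 26897 detected genes. In the deposited variance-stabilised values, whose floor for a gene at 0 is 7.10, Ttr had 7.54 to 7.66 in controls 1, 3 and 4, 8.84 in control replicate 2, 7.34 to 7.95 in the knockdown libraries and 11.4 to 14.1 in the overexpression libraries. All libraries without the overexpression virus except control replicate 2 thus sat near the floor of that scale.

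Ttr was higher with the overexpression virus than in the controls by 7.01 ± 0.81 on the log2 scale (SE), with an edgeR adjusted p of 0.0168. The 95% interval of that difference ran from 5.26 to 8.76, or 38.2-fold to 434-fold. It was the only gene that passed among 18289 tested, which is 0.00547% of them, and the gene with the smallest p. Its lowest overexpression library was 11.1 times its highest control, so the groups did not overlap. Among all genes tested, 2.72% had groups that did not overlap, and 1.88% had every overexpression library above every control. Ttr had the 2nd largest difference in size of all genes tested, after the immunoglobulin gene Ighg2b (7.25, edgeR adjusted p = 0.522). The call on Ttr did not hold when some single libraries were left out, although the difference stayed between 6.39 and 9.02. The edgeR adjusted p was 0.143, 0.0922 and 0.162 without control replicates 1, 3 and 4 and 0.0506 without overexpression replicate 3, and it was 0.00149 without control replicate 2. It was 0.0452 and 0.0423 without knockdown replicates 1 and 3, which enter the shared estimate of spread. The call also ended with limma-voom (adjusted p = 0.173), with only these groups in the edgeR fit (0.264), with robust dispersions (0.333) and with a choroid plexus score as covariate (0.410). That score rests on 2 markers, of which Kcnj13 was itself higher with overexpression, so it cannot separate choroid plexus from group. The call held in 10 of 14 other settings, among them DESeq2 (adjusted p = 1.5e-07), which called 38 genes, and limma on the deposited variance-stabilised values (0.000765).

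Against the knockdown libraries, Ttr was higher with the overexpression virus by 8.42 ± 0.91 on the log2 scale, with an edgeR adjusted p of 0.00774 and an interval from 6.45 to 10.4. This was the largest difference of any gene tested in that comparison, and again Ttr was the only gene to pass (0.00547%). The lowest overexpression library was 50.7 times the highest knockdown library, while 2.37% of all genes had no overlap between these groups and 1.23% had every overexpression library higher. The 2 comparisons share the overexpression libraries and are not independent. The edgeR adjusted p was 0.0929, 0.0641 and 0.0927 without knockdown replicates 1, 2 and 3, where the difference was 8.13, 9.04 and 8.36. The call also ended with limma-voom (adjusted p = 0.713), with robust dispersions in edgeR (0.355) and with a choroid plexus score as covariate (0.0525). The limit on that score, given above, holds here too. In 11 of 14 other settings the call held.

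A reduction of Ttr by the hairpin was not detectable with these libraries. Knockdown minus control was -1.41 ± 1.16 on the log2 scale (edgeR adjusted p = 0.936, unadjusted p = 0.245), and its 95% interval ran from 15.1-fold lower to 2.13-fold higher. The values of the 2 groups overlapped, while 4.11% of all genes tested had no overlap between them and 2.78% had every knockdown library higher. Their order depended on the summary, since the means were 2.59 ± 3.94 CPM in controls and 0.873 ± 0.718 CPM in knockdown libraries (SD, n = 4), while the medians were 0.680 and 0.745 CPM. Without control replicate 2 the difference turned to 0.60 (edgeR adjusted p = 0.999), with a control mean of 0.617 ± 0.148 CPM over the other 3. Without knockdown replicate 1 it was -1.12, without knockdown replicate 2 it was -2.03 and without knockdown replicate 3 it was -1.36. In this comparison 1 gene other than Ttr passed (0.00547% of those tested), the activity-induced nuclear receptor gene Nr4a1 (1.06 ± 0.13, edgeR adjusted p = 0.0242). No gene passed (0 calls) in 7 of the 12 fits that left out 1 library, knockdown replicates 1 and 3 among those libraries. The order of the 3 groups was therefore overexpression above both others, and control and knockdown not told apart. In bulk samples, fewer cells with Ttr and less Ttr RNA per cell cannot be told apart.

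**Figure D2:**
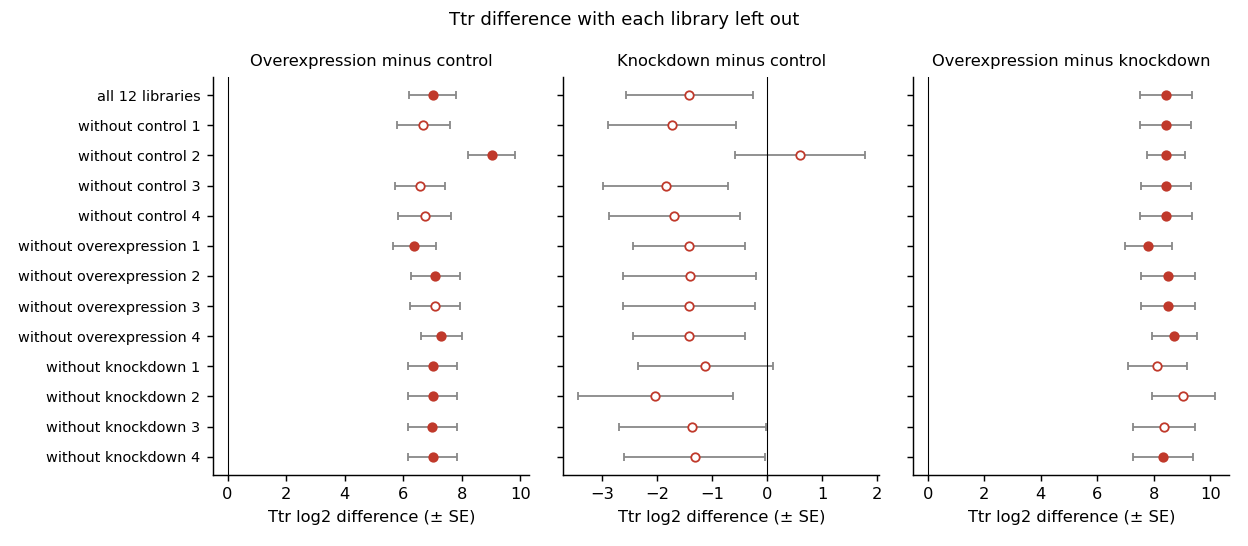
The log2 difference of Ttr (± SE, edgeR) for each pair of groups, with all 12 libraries and with each library left out. Filled points passed an adjusted p of 0.05 and open points did not. The value for knockdown minus control crosses 0 only without control replicate 2 (0.60).

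Because Ttr in cortex samples can come from choroid plexus, its level was set against 8 markers of that epithelium in the same library. They were the folate receptor gene Folr1, the potassium channel genes Kcnj13 and Kcne2, the transcription factor gene Otx2, the clotting factor gene F5, the tight junction gene Cldn2, the secreted inhibitor gene Sostdc1 and Tmem72, a membrane protein gene. All 8 were near the limit of detection. In control replicates 1 to 4 the counts of all 8 together came to 33, 46, 65 and 31. They came to 73, 73, 110 and 75 with overexpression and to 33, 38, 108 and 27 with knockdown. Between 0 and 4 of the 8 were at 0 counts in a library. Tmem72 had at most 5 counts, Kcne2 at most 2 and Folr1 at most 11 in any library, and Kcnj13 reached 57. Only Kcnj13 and F5 had counts enough to be tested, and neither passed in any comparison. The level of Kcnj13 was 0.344 ± 0.374 CPM in controls, 1.24 ± 0.564 with the overexpression virus and 0.556 ± 0.430 with the hairpin. F5 had 0.438, 0.551 and 0.417 CPM in the same order. The summed markers lay at 2.23 to 3.94 CPM in overexpression libraries and 1.34 to 1.95 CPM in controls, ranges that did not overlap, and at 1.38 to 3.08 CPM in knockdown libraries. Without Kcnj13 the sums were 1.07 to 2.31 CPM with overexpression and 0.901 to 1.74 CPM in controls, which overlapped. Of 14 further markers, some also made by other brain cells, 11 were measured and 0 passed, beside 0.00547% of all genes tested. In overexpression minus control 10 of the 11 were positive, with a median of 0.77 on the log2 scale beside 0.0038 over all genes tested. There 2 did not overlap between groups, both higher, against 1.88% of all genes. In knockdown minus control 9 of the 11 were positive, with a median of 0.21.

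Ttr was far above these markers only where the overexpression virus had been given. No library of choroid plexus was part of the series, so the ratio in that tissue itself is not known here. The source of the Ttr RNA in each library was not tested. Per length, it had 487, 168, 89.4 and 49.3 times the summed TPM of the 8 markers in overexpression replicates 1 to 4. In the controls it had 0.792, 8.52, 0.413 and 1.14 times their sum, and in the knockdown libraries 0.183, 2.27, 0.42 and 0.658 times. The lowest overexpression library was 5.78 times the highest control on this measure. The limit on the length of Ttr in the vector, given above, holds for this measure too. On the log2 scale of counts (0.5 added on both sides) the ratio of Ttr to the markers was 6.47 ± 1.40 with overexpression, -0.42 ± 1.74 in controls and -1.47 ± 1.495 with knockdown (SD, n = 4). Overexpression exceeded control by 6.89 and knockdown by 7.93. Each had p = 0.0286 in a two-sided exact permutation test over libraries, the smallest p that 4 against 4 can give. The adjusted p over the 3 comparisons was 0.0429 for each. Ttr alone did not overlap between these groups, and the markers spanned only 1.34 to 3.94 CPM over the 12 libraries. These p-values were thus set by Ttr itself and are no further support. Without knockdown replicates 1 and 3 the difference from knockdown was 7.33 and 7.79. Knockdown minus control was -1.04 (exact permutation p = 0.429), and -0.20 without control replicate 2. It was -0.44 and -0.90 without knockdown replicates 1 and 3.

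**Figure D3:**
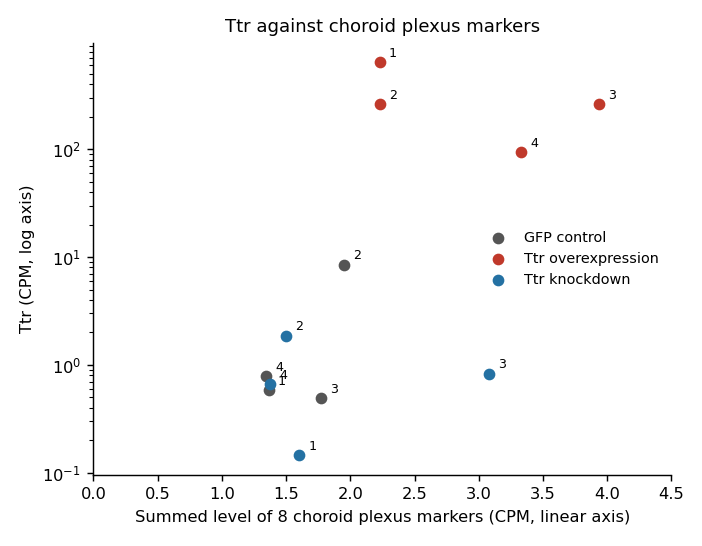
Ttr (CPM, log axis) against the summed level of 8 choroid plexus markers (CPM, linear axis), 1 point for each of the 12 libraries, numbered by replicate. The markers span 1.34 to 3.94 CPM while Ttr spans 0.146 to 639 CPM. Control replicate 2 (8.50 CPM of Ttr) has 1.95 CPM of the markers, against 1.34 to 1.77 CPM in the other controls.

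Choroid plexus markers differed less than Ttr between control replicate 2 and the other controls. That library had 1.95 CPM of the 8 markers, against 1.34 to 1.77 CPM in the other controls, and knockdown replicate 3, with 3.08 CPM, had 0.827 CPM of Ttr. The 14 further markers of choroid plexus, some of which other brain cells also make, summed to 318 CPM in control replicate 2 and to 223 to 262 CPM in the other controls. Of that sum Enpp2, which oligodendrocytes also make, gave 304 CPM in control replicate 2 and 211 to 248 CPM in the others. The striatal markers summed to 638 CPM in control replicate 2 and to 295, 342 and 1147 CPM in control replicates 1, 3 and 4. The ependymal markers, from the cells that line the ventricles, summed to 15.2 CPM there and to 12.4 to 26.7 CPM in the other controls. The striatal and ependymal sums of control replicate 2 thus lay within the range of the other controls. Both choroid plexus sums lay above that range. The sum of 14 was mostly Enpp2, and the sum of 8 rested on 46 counts in that library, so neither shows more choroid plexus there. Their part in its Ttr was not tested.

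The spread of Ttr between libraries was wide within the overexpression and knockdown groups, and in the controls it rested on replicate 2. The SD of its log2 CPM was 1.84 in controls, 1.13 with overexpression and 1.30 with knockdown, where the median gene had 0.130, 0.145 and 0.134. Only 0.0328% of tested genes had a larger SD in the controls, 0.919% in the overexpression libraries and 0.558% in the knockdown libraries. Set against genes of similar level in the same group (mean log2 CPM within 1), 0 of 1478 genes had a larger SD with overexpression, 3 of 3108 in controls and 38 of 3061 with knockdown. Without control replicate 2 the control SD was 0.30, and 1551 of 2954 genes of similar level had a larger one. The fitted biological coefficient of variation of Ttr was 0.83 against a median of 0.105. This spread enters the error of every test on Ttr above.

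**Figure D4:**
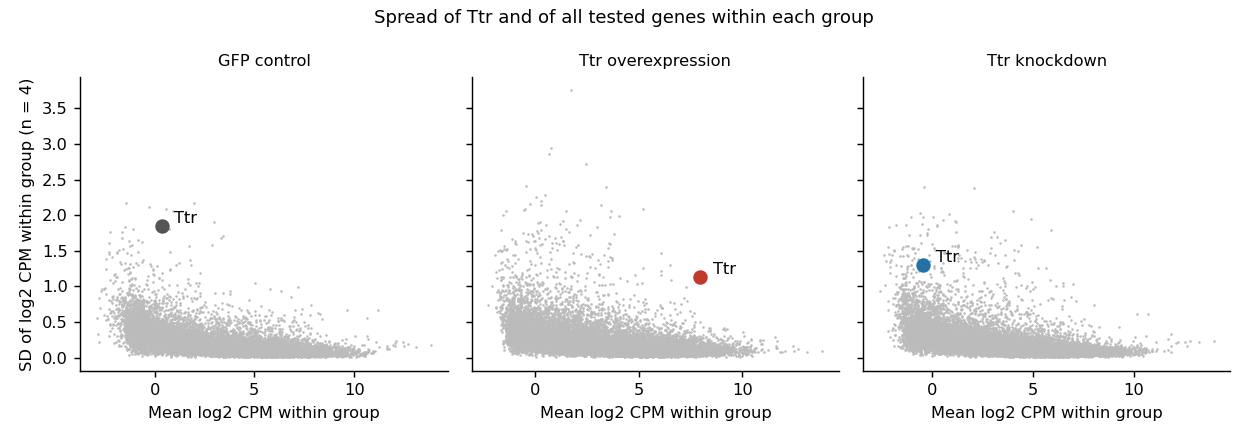
SD of log2 CPM within a group (n = 4) against the group's mean log2 CPM for all genes tested (grey) and Ttr (coloured), 1 panel per group. Ttr lies above nearly all genes of its level in each panel, with SDs of 1.84, 1.13 and 1.30, and the control value falls to 0.30 without replicate 2.

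The overexpression libraries also differed from one another in other tissue markers, side by side with Ttr. In replicates 1 to 4, where Ttr had 639, 261, 260 and 94.2 CPM, the 20 genes of vessel wall and meninges summed to 349, 353, 505 and 397 CPM. The striatal genes summed to 778, 257, 440 and 1462 CPM and the excitatory neuron genes to 2057, 2320, 1999 and 2028 CPM. The library with the least Ttr had the most striatal RNA, and the 2 libraries with nearly equal Ttr differed in vessel and meningeal RNA. With 4 libraries no relation was tested. In overexpression minus control, 11 of the 20 vessel and meningeal genes had no overlap between groups, all higher, against 1.88% of all genes. Of the 20, 0 passed the edgeR test, beside 0.00547% of all genes tested. The part of these tissue differences in the Ttr values was not tested.

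Genes on both sides of Ttr on chromosome 18 had like levels in the 3 groups. B4galt6, a glycolipid galactosyltransferase gene whose nearest end lies 10278 bases beyond Ttr, had 174 ± 10.7 CPM in controls, 176 ± 7.72 with overexpression and 175 ± 4.53 with knockdown. Its log2 difference was 0.02 ± 0.05 in overexpression minus control (edgeR adjusted p = 0.974). Trappc8, a vesicle tethering gene, had 61.6, 61.5 and 60.0 CPM in the same order. On the other side, Dsg2, an adhesion gene of cell junctions, had 2.53, 2.84 and 2.48 CPM, with a difference of 0.17 ± 0.21 in overexpression minus control (edgeR adjusted p = 0.925). Dsg3 had 0 to 4 counts in a library and the antisense gene Gm16090 0 or 1. The pseudogene Gm10269, 8273 bases beyond Ttr, had 7 to 19 counts. None of B4galt6, Trappc8, Dsg2 and Gm10269, the neighbours with counts enough to be tested, passed in any comparison. Of all genes tested 0.00547% passed.

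Genes that handle the ligands of transthyretin did not pass the test in any comparison. Only 0.00547% of all genes tested passed in each comparison, so 0 calls in a list of this size is no result about its members. Of 21 retinol genes 17 were measured, and 0 passed in either direction in any of the 3 comparisons. In overexpression minus control 14 of the 17 had positive values with a median of 0.21 on the log2 scale, beside 0.0038 over all genes tested, and 2 of them did not overlap between groups, both higher, against 1.88% of all genes. In knockdown minus control 12 of the 17 were positive with a median of 0.19, and in overexpression minus knockdown 11 were positive with a median of 0.03. Rbp4, the retinol-binding protein that transthyretin carries, had 17.8 ± 1.49 CPM in controls, 16.02 ± 2.11 with overexpression and 18.1 ± 1.30 with knockdown. In TPM, Rbp4 had 38.4 in controls, where Ttr had 1.05 to 17.5. Stra6, the membrane receptor that takes up retinol from Rbp4, had 6.12, 7.43 and 8.59 CPM in the same order. Aldh1a2, which makes retinoic acid and is also a meningeal gene, had 2.99 ± 1.60 CPM in controls and 10.97 ± 3.51 with overexpression, a difference of 1.85 ± 0.42 (edgeR adjusted p = 0.491) whose groups did not overlap, as in 1.88% of all genes. The vessel and meningeal genes above differed in the same direction, and their part in it was not tested.

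Thyroid hormone genes were measured for 13 of 16 members, and 0 passed in any comparison, beside 0.00547% of all genes tested. In overexpression minus control 4 of 13 were positive, with a median of -0.08. In knockdown minus control 1 of 13 did not overlap, higher, against 2.78% of all genes. In overexpression minus knockdown 1 of 13 did not overlap, lower, against 2.37% of all genes in either direction. The receptor genes Thra and Thrb had 846 ± 80.7 and 97.3 ± 9.24 CPM in controls, 778 ± 68.0 and 91.4 ± 19.4 with overexpression, and 869 ± 90.7 and 92.9 ± 4.71 with knockdown. Dio2, the deiodinase of astrocytes that activates thyroxine, had 82.3, 89.4 and 87.6 CPM in controls, overexpression and knockdown. The transporter gene Slco1c1 had 47.8 CPM in controls, 50.1 with overexpression and 53.3 with knockdown. Klf9, a gene that thyroid hormone is known to induce, had 264 ± 9.24 CPM in controls and 255 ± 30.2 with overexpression, a difference of -0.05 ± 0.08 (edgeR adjusted p = 0.947). Crym, which binds thyroid hormone in the cytosol, had 115, 105 and 112 CPM in controls, overexpression and knockdown.

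Reported receptors and partners of the protein, 9 of 11 measured, also gave 0 calls in each comparison, beside 0.00547% of all genes tested. Of the 9, only Ager did not overlap between overexpression and control, against 1.88% of all genes higher without overlap. It had 0.40 to 0.57 CPM with overexpression and 0.17 to 0.25 CPM in controls (edgeR adjusted p = 0.789). Lrp1, an endocytic receptor, had 406 to 423 CPM in controls, 401 to 437 with overexpression and 365 to 445 with knockdown. Lrp2, the endocytic receptor megalin, was too low to be tested, at 0.342, 0.252 and 0.171 CPM. Igf1r, the receptor of insulin-like growth factor, had 73.7, 69.2 and 67.8 CPM. The extracellular chaperone gene Clu had 656, 639 and 645 CPM, and Apoe 1168, 1257 and 1241 CPM. Of the vitamin B12 genes, which the series title makes of interest, all 13 were measured and 0 passed, beside the same share of all genes. Tcn2, which carries the vitamin to cells, had 14.5 ± 0.770 CPM in controls, 16.8 ± 2.76 with overexpression and 16.6 to 24.7 with knockdown. Its difference in knockdown minus control was 0.39 ± 0.13 (edgeR adjusted p = 0.770). Every knockdown library lay above every control, as in 2.78% of all genes. Of the 13 genes, 1 was higher and 1 lower without overlap in that comparison, against 4.11% of all genes in either direction. Cd320, the receptor for that carrier, had 11.3, 10.8 and 11.8 CPM.

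Folding genes of the endoplasmic reticulum, where secreted proteins such as transthyretin are folded, gave 0 calls among 26 measured members in each comparison. The share of all genes tested that passed was 0.00547%. In overexpression minus control 5 of 26 were positive, with a median of -0.05 beside 0.0038 for all genes tested. In knockdown minus control 8 of 26 were positive with a median of -0.04, and 3 members did not overlap between groups, all lower. Among all genes 4.11% did not overlap there in either direction, while 2.78% had every knockdown library higher, so fewer than 4.11% were lower. The chaperone gene Hspa5 had 311 ± 43.3 CPM in controls, 291 ± 21.8 with overexpression and 295 ± 21.0 with knockdown. Ddit3, a transcription factor gene induced by misfolded protein, had 18.8, 17.8 and 19.7 CPM. Pdia6, a disulphide isomerase gene with the smallest p of the list in that comparison, had a difference of -0.15 (edgeR adjusted p = 0.792).

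Of 9 transcription factors known at the Ttr gene in liver or choroid plexus, 6 had at most 2 counts in any library. Foxa2 and Foxa3 had 0 counts in every library, and Hnf4a, Foxa1 and Onecut1 had 0 to 2. The 3 members with enough counts were Cebpa, Cebpb and the glucocorticoid receptor gene Nr3c1. Of these 0 passed, beside 0.00547% of all genes tested. Nr3c1 had 141 ± 4.17 CPM in controls, 137 ± 10.7 with overexpression and 131 ± 11.4 with knockdown. Of 19 best-known genes of these lists (those of the plot of differences, and Lrp2), 18 were tested and 0 passed in any comparison. In overexpression minus control 17 of the 18 lay within 0.3 of 0 on the log2 scale, all except Aldh1a2, beside the 7.01 of Ttr. A p that misses the threshold does not show that these genes did not differ.

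**Figure D5:**
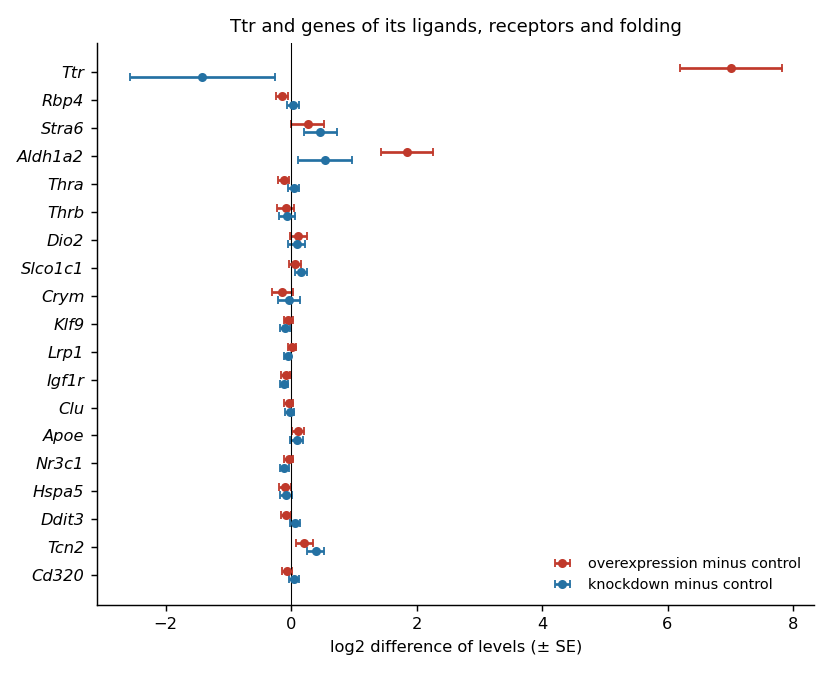
The log2 difference (± SE, edgeR) of Ttr and of 18 genes of its ligands, receptors, regulators, folding and vitamin B12, for overexpression minus control (red) and knockdown minus control (blue). For overexpression Ttr lies at 7.01, Aldh1a2 at 1.85 and the other 17 within 0.3 of 0. For knockdown 15 of the 18 lie within 0.3, all but Aldh1a2 (0.54), Stra6 (0.47) and Tcn2 (0.39).

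Genes were ranked by how closely they followed Ttr over the libraries. Over all 12, the 5 genes with the highest Pearson r of log2 CPM with Ttr were Gm31763 (0.895), Gm960 (0.868), Gm20281 (0.851), Gm37447 (0.849) and Rcor3 (0.847, a corepressor gene). The overexpression libraries set much of the range of Ttr over these 12, and 4 of the 5 genes had at most 80 counts. Among the 8 libraries without the overexpression virus the r of these 5 genes was 0.43 to 0.762. Rcor3 had 17.7 to 19.2 CPM in controls, 19.4 to 20.7 with overexpression and 15.7 to 19.1 with knockdown, while Ttr spanned 0.146 to 639 CPM. Over the 8 libraries without the overexpression virus the highest r values were those of Mylpf (0.96), Rsu1 (0.958), Trp53bp2 (0.956), Jph1 (0.941) and D16Ertd472e (0.936). All 5 were highest in control replicate 2 among these 8 libraries. Without that library their r lay between 0.809 and 0.922. They were picked for the highest r over libraries that include the ones left, so high values there followed from the choice. Over these 8 libraries 167 genes had r above 0.8. Rsu1, a cell adhesion gene, had 15.96 CPM in knockdown replicate 1, 21.7 in control replicate 2 and 16.9 to 19.8 in the other 6 libraries. Of the 8 choroid plexus markers only Kcnj13 and F5 had counts enough to be ranked, and neither was among these genes. The points share library depth and dissection, so the values of r are a description of these libraries.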

How the data were processed

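The deposited tables give, for 12 libraries, counts per gene, TPM and variance-stabilised values. The authors deposited counts as whole numbers, not normalised. The deposited TPM equal the counts divided by 1 length per gene and scaled, within 0.01 on the log2 scale for 100% of values of 18251 genes. The authors' variance-stabilised values are on a log2 scale, and a gene at 0 has 7.10. Per the submitters' processing notes, DESeq2, featureCounts, UMI-tools and bcl2fastq 2.20.0.422 were used in roles that are not given, and GRCm38 and mm10 are listed as builds. Libraries were directional and made from 500 ng of total RNA, per the labels' protocols. Aligner, annotation release and strand setting were not given in the sources used here. Intervals cover counting error only.

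Of 55401 identifiers 55141 were matched to symbols, and the rest held 0.00474% of counts. Genes were tested by quasi-likelihood in edgeR 4.0.16 (R 4.3.3) after its default filter, with TMM scaling, all 3 groups in 1 model and Benjamini-Hochberg adjustment over 18289 genes at 0.05. The edgeR procedure was tested on simulated data. Log2 CPM used a prior count of 2. The ratio of Ttr to choroid plexus markers was tested by a two-sided exact permutation test. The genes named were Ttr, the 8 choroid plexus markers, the neighbours of Ttr, 19 best-known genes of the lists, the member of each list with the smallest p, genes that passed and the 5 genes most like Ttr. Other genes were named after their values were seen, and some genes of the lists, which stay in the counts, are not reported here by name. The gene and the lists were chosen with earlier results of these data known.

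Alternatives were other scalings and filters, limma 3.58.1, DESeq2 1.42.0, the deposited TPM and variance-stabilised values, the replicate number as a block, a choroid plexus score as covariate and each library left out. Added after seeing the data were an exact permutation test on log2 CPM of Ttr alone, the spread of the controls without replicate 2 and the marker sum without Kcnj13. All 18 pairs of replicates differed by more than counting error (chi-square 5.38 to 28.3 per degree of freedom). Plots were made in matplotlib 3.10.9 under Python 3.11.15.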

Additional observations from a re-analysis of the deposited data

Results flagged for a closer look

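In 15 sets of 4 values (5 measures in 3 groups) a library was picked out where its gap to the nearest other library was, as a share of the whole range of its group, above Dixon's 95% critical value, a limit that chance passes in about 1 of 20 groups. Control replicate 2 was picked out for Ttr on 3 scales that rest on the same reads, with 8.50 CPM, 17.5 TPM and a variance-stabilised value of 8.84. The other controls had at most 0.781 CPM. Its ratio of Ttr to the choroid plexus markers (2.11 on the log2 scale, against -1.82 to -0.77) was not picked out by this limit. Knockdown replicate 3 was picked out for the summed choroid plexus markers, with 3.08 CPM against 1.38 to 1.60 in the other knockdown libraries. Its Ttr, 0.827 CPM, lay within the range of its group, and it was 1 of the 2 libraries with 15.6 CPM of Xist.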

How the results depend on the processing

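The difference of Ttr in overexpression minus control was positive under all 14 other settings and 12 left-out libraries (4.87 to 9.02 on the log2 scale). Its call ended with limma-voom (7.83), with only the 2 groups compared (7.01), with the choroid plexus score as covariate (7.59) and with robust dispersions (7.01). Left-out libraries gave 6.39 to 9.02. Overexpression minus knockdown was positive under the same settings (5.13 to 9.04), and its call ended with limma-voom (8.51), the choroid plexus score (8.81) and robust dispersions (8.42), with 7.81 to 9.04 over left-out libraries. The choroid plexus score rests on only 2 markers that passed the filter, Kcnj13 and F5. Kcnj13 had a mean of 1.24 CPM with overexpression and 0.344 CPM in controls. The score is thus partly tied to group, and the calls that ended with it cannot decide on choroid plexus. Knockdown minus control was negative under all 14 other settings (-1.56 to -0.26) and ran from -2.03 to 0.60 over left-out libraries, with the turn to 0.60 without control replicate 2. An exact permutation test on Ttr alone gave 7.62 and 8.44 (adjusted p = 0.0429 for both) and -0.82 (p = 0.60).

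The ratio of Ttr to choroid plexus markers was 6.89 and 7.93 with pairing by replicate number, where 4 pairs cannot go below an exact p of 0.125, so both calls ended. Left-out libraries gave 6.33 to 7.73, 7.33 to 8.52 and, for knockdown minus control, -1.63 to -0.20. All other settings kept direction and call.

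The number of genes called in overexpression minus control, 1 in the main test, was 20 without a filter, 38 with DESeq2 and 0 with limma-voom, with the 2 groups alone, with the choroid plexus score and with robust dispersions, where 957, 1094, 237 and 1104 genes had an unadjusted p below 0.05. Left-out libraries gave 0 to 4. In knockdown minus control it was 22 without a filter, 43 with DESeq2, 2 with the 2 groups alone and 0 with limma on both TPM scales (941 and 910 unadjusted), with the replicate block (1019) and with the choroid plexus score (898), and 0 to 10 over left-out libraries. In overexpression minus knockdown it was 3 with DESeq2, 2 with the replicate block and 0 with limma-voom (871), the choroid plexus score (370) and robust dispersions (893), and 0 to 2 over left-out libraries. With the replicate block the difference of Ttr was 7.20, -1.29 and 8.49 with no call changed. Same-numbered libraries deviated together in 2 of 12 pairs (r above 0.1, range -0.341 to 0.16) and 1 of 12 libraries correlated best with its own number, so the numbers were not taken to pair the samples. The cause of these changes was not tested. At 3 to 47 counts in 7 of 8 libraries without the overexpression virus, both counting error and the spread between libraries enter the interval of a fall in Ttr, and their shares were not tested.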
